A study of Mus musculus with 5 samples.

Results

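Conserved 8mer sites in coding sequences are positions in the protein-coding part of an mRNA that lay under an Argonaute (Ago) cluster in mouse liver and carried the longest of the usual seed matches. Sites were taken where the deposited tables gave the seed type as 8mer, a conservation score of 0.9 or more and a region that contained cds but not utr3, and sites of miR-122-5p were left out. A site was counted once for each position, strand and seed, so miRNAs that share a seed shared the site. By this rule there were 26252 sites out of 1746679 distinct sites of all kinds, in 7756 genes and for 828 seeds that belong to 979 miRNAs. They made up 60.0% of the 43730 coding 8mers, whereas 32.1% of the 24619 8mers in 3′UTRs reached the same score. The score was exactly 1 at 11405 of the sites (43.4%). The 429 sites with scores between 0.90 and 0.91 had a median of 28 reads in the table where they were highest, and 22.1% of them were in at least 2 tables. The 404 coding 8mers with scores between 0.89 and 0.90, just outside the rule, had a median of 26 reads, and 22.0% were in at least 2 tables.

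The tables come from Ago HITS-CLIP of C57BL/6 mouse livers (C57BL/6J in the study's methods) from 5 stages. The embryonic ones are e12.5, e15.5 and also e18.5 (days after mating), the newborn stage is P7 (postnatal day 7), and adults were aged 6 to 8 weeks by the study's methods. In this assay ultraviolet light crosslinks RNA to Ago in the tissue, the complexes are precipitated, and the RNA is sequenced. Ago2 antibodies were used for embryos, and antibodies to Ago2 and Ago1 for P7 and adult livers, so the antibody and the postnatal stages cannot be told apart. The labels name no treatment. Each stage had 1 table with no labelled replicate, so a difference between stages was a difference between these tables.

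A miRNA guides Ago to an mRNA mainly through its seed, the stretch of bases near its 5′ end, which pairs with a complementary match in the target. An 8mer match pairs with the whole seed and has an adenosine across from the first miRNA base. Sites in 3′UTRs are the best known for repression of the mRNA. Ago also binds coding sequences, where ribosomes pass over the site and where the bases are also held constant by the protein they encode. A high conservation score within a coding sequence is therefore not a mark of the miRNA site alone. In the fetal liver, blood formation takes place among hepatoblasts, and after birth hepatocytes with their plasma proteins and metabolic enzymes make up most of the organ.

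The mature miRNAs that the results below turn on are shown first, because the seed is what joins each of them to its sites. The sequences are those of RefSeq (GRCm38.p6), written 5′ to 3′, and the capitals mark the seed (bases 2 to 8). miRNAs of a family share the capitals, and the family is named by its commonest member in the tables.
let-7c-5p: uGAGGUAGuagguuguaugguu
miR-27b-3p: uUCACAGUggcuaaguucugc
miR-16-5p: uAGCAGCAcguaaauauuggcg
miR-26a-5p: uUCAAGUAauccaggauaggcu
miR-30a-5p: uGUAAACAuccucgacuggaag
miR-29a-3p: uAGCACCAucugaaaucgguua
miR-194-5p: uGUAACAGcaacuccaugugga
miR-142a-3p: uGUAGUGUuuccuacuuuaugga
miR-19b-3p: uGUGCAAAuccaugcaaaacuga
miR-20a-5p: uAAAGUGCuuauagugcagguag
miR-144-3p: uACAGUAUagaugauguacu
miR-673-5p: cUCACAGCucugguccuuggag
miR-665-3p: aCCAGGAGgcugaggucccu

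The coding fragments that match these seeds are shown for sites whose reads are described below, as examples with high adult reads (such as Fgg and Chp1), with low or no adult reads (such as Daam1 and Rpl26) and with a narrower range (Actb and Foxo3). Each is the mRNA strand of the mm10 genome, written 5′ to 3′, with the 8mer in capitals at the coordinates that follow in this paragraph.
Fgg site of miR-27: cagttcttagtgtACTGTGAA
Cltc site of miR-27: agaagtgtcagtaACTGTGAA
Ahsg site of let-7: ttgttggccgtggaCTACCTCA
Actb site of let-7: cgggacctgacagaCTACCTCA
Chp1 site of miR-194: tctcccgtgatgagCTGTTACA
Tcp1 site of miR-15/16: gactgtctgatcaaTGCTGCTA
Foxo3 site of miR-29: tgtggggaacttcacTGGTGCTA
Rpl26 site of miR-142a-3p: tcaggttgttcgcggACACTACA
Daam1 site of miR-144-3p: aaagtggcagatATACTGTA
Cps1 site of miR-673-5p: actcgggatctcaaGCTGTGAA
On mm10, the Fgg site is at chr3:83010543-83010550 on the plus strand in exon 6 of 10, and the Cltc site at chr11:86707557-86707564 on the minus strand in exon 19 of 32. The Ahsg site is at chr16:22892252-22892259 (plus strand, exon 1 of 7), and the Actb site at chr5:142904578-142904585 (minus strand, exon 4 of 6). The Chp1 site is at chr2:119580748-119580755 (plus strand, exon 5 of 7), and the Tcp1 site at chr17:12919887-12919894 (plus strand, exon 5 of 12). The Foxo3 site is at chr10:42196536-42196543 (minus strand, exon 3 of 4), and the Rpl26 site at chr11:68903190-68903197 (plus strand, exon 3 of 4). The Daam1 site is at chr12:71915770-71915777 (plus strand, exon 3 of 26), and the Cps1 site at chr1:67162659-67162666 (plus strand, exon 13 of 38). All of these positions are coding in the GENCODE annotation.

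Some facts of the tables bear on every count. The embryonic tables each held 2 lists, which the labels do not describe, and a site was counted when either list had it. At e12.5 the lists had 2510 and 11459 of the conserved coding 8mers and shared 1522, which is 60.6% of the first list and 13.3% of the second. Shared sites differed in reads between the lists with an SD of 1.73 on the log2 scale at e12.5 and of 2.10 and 1.43 at the later embryonic stages, and this is the only spread within a stage that the tables give. The study's methods name biological replicates of the Ago2 assay, and whether the lists are these is not stated. Its supplement lists a second library for e18.5 and none for the other stages. Of the 843 seeds in any table, 313 were listed in all 5, and a site of any other seed could not be found at every stage. Reads are the highest read number of the cluster under a site, with 5 as the lowest value listed, and sites within a cluster mostly share 1 value. The column that holds them has another name at e12.5 than in the other tables, and whether it is the same measure is not known. Clusters without any seed match are not in the tables, so a sum over a table is less than its library held, and intervals cover counting error only. For an embryonic table the sum of cluster reads runs over both lists, but a site keeps the higher reads of the 2. Values per 1000000 cluster reads are thus lowered in the embryonic tables relative to P7 and the adult.

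The number of sites differed between the tables. There were 12447 sites in 4872 genes at e12.5, and at e15.5 there were 4485 in 2632 genes. The e18.5 liver had 4001 in 2499 genes, the P7 liver 9520 in 4510 genes and the adult liver 5950 in 3271 genes. The e12.5 table held the most and the e18.5 table the fewest. Median reads at a site were 34, 37, 26, 18 and 28 in the same order, so the P7 table had many sites but the lowest reads. From e12.5 to the adult, conserved sites were 63.7%, 64.2%, 59.8%, 58.6% and 55.6% of the coding 8mers. The seeds of the 100 miRNAs with the highest number in a table accounted for 5837 sites in all (22.2%), and for 17.2% (P7) to 26.8% (e15.5) of the sites in a table. Over all tables those seeds were 107 of the 828 with a site, so most sites, like most seeds, were of miRNAs outside the most numerous ones. A cluster under a site matched a median of 4 further seeds. A listed site shows a seed match beneath Ago and does not show which miRNA held it.

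The genes with the most sites encode large proteins of the cytoskeleton, vesicle coats and RNA processing. Among them, Macf1, which links microtubules and actin, had 67, Cltc (clathrin heavy chain, of the coat of endocytic vesicles) had 58, Sptbn1 (a spectrin of the membrane skeleton) had 50 and Myh9 (non-muscle myosin heavy chain) had 45. Ubr4, a ubiquitin ligase, had 42. Tnrc6b, a partner of Ago in repression, had 41, and Prpf8, the central splicing factor, had 39. Of the liver's own products, Cps1 (the first enzyme of the urea cycle) had 33 and Apob (the protein of VLDL and LDL particles) had 24. At the other end, 2774 of the 7756 genes had 1 site, while 1704 had 5 or more and 462 had 10 or more.

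The seed families with the most sites held some of the most abundant miRNAs (let-7, miR-15/16 and miR-27) and others with low numbers. miR-337-3p led with 274 sites, followed by miR-665-3p with 263, miR-130b-5p with 248, miR-27 with 241, miR-7033-5p with 238, miR-320-5p with 229, let-7 with 228, miR-338-3p with 218, miR-692 with 210 and miR-15/16 with 203. Several of these had no entry in some tables: miR-7033-5p and miR-320-5p were listed only at P7 and in the adult, miR-665-3p in every table but the adult, and miR-692 not at e15.5 or e18.5. Among families of the 100 most numerous miRNAs, miR-665-3p, miR-27, let-7 and miR-15/16 were followed by miR-145 with 185 sites, miR-673-5p with 177, miR-136-5p with 153, miR-103/107 with 149, miR-484 with 143 and miR-23 with 142. Families differed in how many of their coding 8mers met the score. It was 80.6% of 283 for let-7, 76.2% for miR-30, 73.4% for miR-145 and 72.6% for miR-26, against 62.3% of 387 for miR-27 and 48.0% for miR-484.

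let-7, which promotes differentiation and is known to increase during development, had its largest share of sites in the adult. In order from e12.5 to the adult, the tables held 90, 45, 59, 124 and 129 let-7 sites. As a share of the conserved coding 8mers of the table this was 0.723%, 1.0%, 1.47%, 1.30% and 2.17%. The number that the tables give for the let-7 miRNAs themselves, taken here as their reads, was 2.45%, 3.61%, 5.72%, 15.3% and 22.4% of all miRNAs in the same order. Both measures were lowest at e12.5 and highest in the adult, but the sites spanned a much narrower range than the miRNA. miR-26 had 48, 38, 53, 78 and 66 sites over the same stages, and miR-30 had 64, 38, 53, 74 and 68. For both, the share of sites was highest at e18.5 and lowest at e12.5. The tables held sites of 613, 438, 477, 602 and 456 seeds in the same order. A table with fewer seeds can give each listed family a larger share, which applies to these courses and to those that follow.

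The hematopoietic miR-142a-3p had its smallest share of sites in the adult, with 56 sites at e12.5, then 33, 27 and 20, and 6 in the adult. As a share of the sites of each table this was 0.450% at e12.5, then 0.736%, 0.675% and 0.210%, and 0.101% in the adult, so the share was largest at e15.5. Its own number was 32.2% of all miRNAs at e12.5, then 37.1%, 23.9% and 8.88%, and 4.34% in the adult. In every table it was thus a larger share of the miRNAs than miR-27, yet miR-27 had more sites at every stage. miR-27, a family that is broadly expressed, had 133, 98, 87, 108 and 97 sites while its own share of the miRNAs lay between 0.488% and 2.87%. The miR-17/20 family (with miR-93 and miR-106) and miR-19, which come in part from a gene cluster known for its role in proliferation, had 49 and 81 sites at e12.5 and 10 and 21 in the adult.

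**Figure D1:**
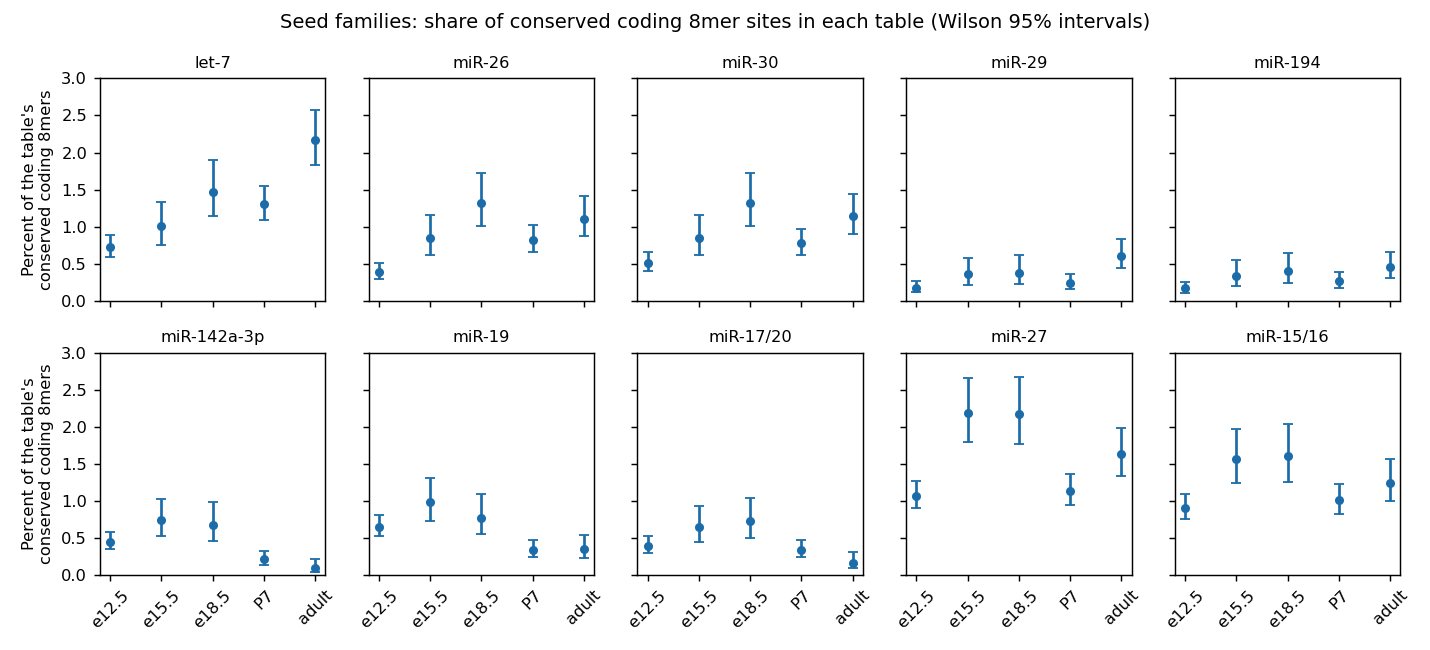
Percent of the conserved coding 8mers of each table that matched 10 seed families (y axis), for the 5 stages (x axis), with Wilson 95% intervals for counting error only. The let-7 point is highest in the adult (2.17%), the miR-142a-3p point is lowest there, and miR-27 and miR-15/16 stand highest at e15.5 and e18.5. The tables differ in how many seeds have sites, which can shift these shares.

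Whether a family took a different share of the sites in the adult table than in the e12.5 table was tested with a two-sided Fisher's exact test for each family with at least 10 sites, with Benjamini-Hochberg adjustment. Of 464 families, 206 (44.4%) passed, 71 with a larger and 135 with a smaller share in the adult. However, 164 of the 206 had a seed listed in only 1 of the 2 tables, such as miR-7033-5p (0 and 98 sites) and miR-665-3p (100 and 0). The counts that follow are therefore from the 291 families with seeds listed in both tables, of which 26 (8.93%) passed, 16 with a larger and 10 with a smaller share in the adult. Without adjustment 55 were under 0.05. Of the 26, 25 also passed in the test of all families. Of 79 families of the most numerous miRNAs, 9 passed, 6 of them with a larger share in the adult. The tests compare tables without replicates, and sites of 1 cluster share their reads. Listing was judged by table: 313 seeds were in all 5 tables, and 256 were also in both lists of every embryonic table. A seed held by only 1 list of e12.5 was thus not set aside, and its share can still reflect the listing.

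Among seeds listed in both tables, let-7 sites were 1.05% (95% interval 0.857 to 1.29) of 8556 sites at e12.5 and 2.70% (2.28 to 3.20) of 4775 in the adult, a log2 odds ratio of 1.38 with an adjusted p of 1.02e-09 by Fisher's exact test. The share of miR-26 was 0.561% at e12.5 and 1.38% in the adult (log2 odds ratio 1.31, adjusted p = 0.000166 by the exact test). That of miR-29, which is known to restrain collagen and other matrix genes, was 0.257% and 0.754% (1.55, adjusted p = 0.00212 by the exact test). miR-30 (0.748% and 1.42%, log2 odds ratio 0.94), the hepatocyte miRNA miR-194 (0.245% and 0.565%, log2 odds ratio 1.20) and miR-185 (0.362% and 0.775%, log2 odds ratio 1.10) also had larger shares in the adult, with exact-test adjusted p of 0.00767, 0.0446 and 0.0278. For miR-185 the number of the miRNA itself was lower in the adult (0.021% of all miRNAs) than at e12.5 (0.144%), so its sites and its own number differed in direction. This was so for 8 of the 26 families: miR-185, miR-672-5p, miR-34/449, miR-206, miR-505-5p, miR-3966 and miR-3057-5p had larger site shares and lower numbers in the adult, and miR-383-5p the reverse. In the exact test of all families, miR-3966 turned to -0.63 with the first list of e12.5 (adjusted p = 0.375) and did not pass with cds as the only region (adjusted p = 0.453), miR-505-5p did not pass with the first list (adjusted p = 0.178), and miR-383-5p did not at scores of 0.5 or more (adjusted p = 0.303). With the first list of e12.5 alone, miR-26 (0.86) and miR-29 (1.25) no longer passed in the test of all families (both adjusted p = 0.0851, exact test).

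The families with smaller shares in the adult included miR-142a-3p, at 0.655% of the sites at e12.5 and 0.126% in the adult (log2 odds ratio -2.29, adjusted p = 0.000263 by Fisher's exact test). miR-19 had 0.947% and 0.440% (-1.09, adjusted p = 0.0174), and the miR-17/20 family 0.573% and 0.209% (-1.40, adjusted p = 0.0307). In the exact test of all families, neither passed at scores of 0.99 or more (miR-19 at -0.64, adjusted p = 0.192, and miR-17/20 at -1.11, adjusted p = 0.0622), and miR-19 did not pass with cds as the only region (adjusted p = 0.114) or with the first list (adjusted p = 0.129). The other families that passed matched miRNAs outside the 100 most numerous. Those with larger shares in the adult were led by miR-672-5p with 28 sites at e12.5 and 49 in the adult, the miR-34/449 family with 21 and 37, and miR-206 with 9 and 22. Those with smaller shares were led by miR-692 (130 and 34), miR-130b-5p (124 and 36) and miR-188-3p (97 and 26). Several of these rested on the list or the filter in the exact test of all families. The first list of e12.5 held no miR-692 site, and the value of 4.87 with that list reflects this absence. With the first list, miR-206 had 0.79 (adjusted p = 0.484, exact test) and miR-188-3p did not pass (adjusted p = 0.0572, exact test). With cds as the only region, miR-130b-5p (adjusted p = 0.0733) and miR-188-3p (adjusted p = 0.0523) did not pass the exact test. miR-188-3p also did not pass at scores of 0.99 or more (adjusted p = 0.0606) or of 0.5 or more (adjusted p = 0.352) by the exact test. let-7j, whose seed differs from that of the other let-7 miRNAs, had 23 and 33 (log2 odds ratio 1.36, adjusted p = 0.0125 by the exact test). miR-27 (0.40, adjusted p = 0.248), miR-15/16 (0.24, adjusted p = 0.687) and miR-145 (0.09, adjusted p = 1.0) did not pass, although miR-27 did in the test of all families (0.62, adjusted p = 0.00597).

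Most sites were seen at a single stage. Of the 26252 sites, 19658 (74.9%) were in 1 table, 4279 (16.3%) in 2, 1373 (5.23%) in 3, 642 (2.45%) in 4 and 300 (1.14%, 95% interval 1.02 to 1.28) in all 5. Among the 13742 sites whose seed was listed in every table, 2.18% (1.95 to 2.44) were in all 5 and 65.7% in 1. Within a single table, sites that were in more tables had higher reads. In the e12.5 table the median was 29 reads for sites in that table alone, then 40, 58 and 82 for sites in 2, 3 and 4 tables, and 117.5 for sites in 5. In the adult table these medians were 25, 29, 34, 41.5 and 66. Sites with few reads lie near the lowest value listed, so a site absent from a table was not listed there, which does not show that it was unbound. The e12.5 and e15.5 tables shared 2172 sites, 17.4% of the former and 48.4% of the latter. The P7 and adult tables shared 1840 (19.3% and 30.9%), and 1359 were at both e12.5 and the adult stage (10.9% and 22.8%).

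Conserved coding 8mers recurred somewhat more often than non-conserved ones and less often than conserved 8mers of 3′UTRs. With 1 site kept for each cluster, 207 of 21578 conserved coding 8mers (0.959%) were in all 5 tables, against 16 of 2915 coding 8mers with scores under 0.1 (0.549%), a log2 odds ratio of 0.77 with an adjusted p of 0.0285 by a two-sided Fisher's exact test. By the same exact test, that difference was lost where non-conserved was taken as any score under 0.9 (0.27, adjusted p = 0.111) or where only seeds listed in all 5 tables were used (0.60, adjusted p = 0.0532). Conserved 8mers of 3′UTRs were in all 5 tables at 129 of 6490 clusters (1.99%), and the coding sites were lower by a log2 odds ratio of -1.07 (adjusted p = 5.31e-10, exact test). The gap was narrower for seeds listed in all 5 tables, where 2.18% of 13742 coding sites and 3.18% of 5315 3′UTR sites were in every table. Both p-values compare sites within these tables.

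**Figure D2:**
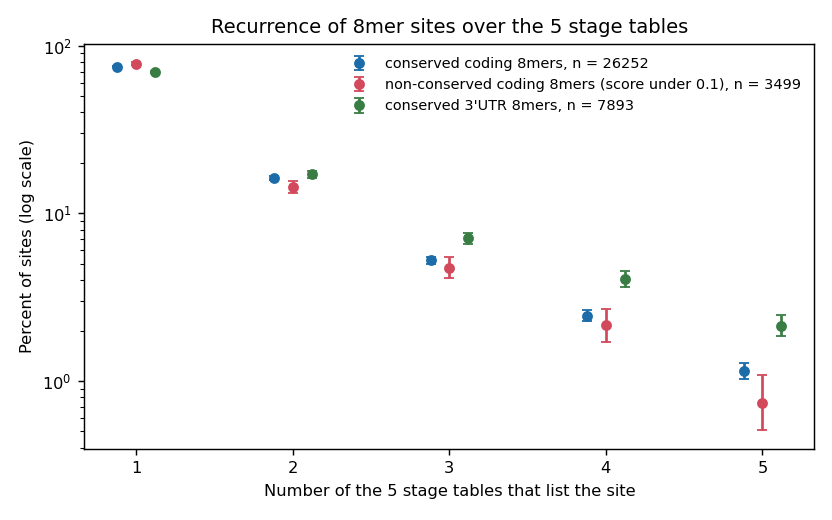
Percent of sites (y axis, log scale) listed in 1 to 5 of the stage tables (x axis) for conserved coding 8mers (blue), coding 8mers with scores under 0.1 (red) and conserved 3′UTR 8mers (green), with Wilson 95% intervals. All 3 sets decline with each further table, and at 5 tables the 3′UTR sites (2.14%) stand above the conserved (1.14%) and the non-conserved coding sites (0.743%).

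Over all sites of seeds listed in every table, 2.18% were in all 5, and the families are set beside this share as a description, with no test. miR-27 had 21 of its 241 sites in all 5 tables and 81 in at least 3. miR-26 had 16 of 114 in all 5, let-7 14 of 228, miR-15/16 14 of 203 and miR-30 13 of 131. miR-337-3p had 6 of 274, close to the share over all sites, and miR-142a-3p had 1 of 68.

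The sites listed in every table with the highest reads, among those of the 100 most numerous miRNAs, were in genes of many functions. The leading one was the miR-27 site of Cltc, with 6720, 3153, 1021, 2325 and 1439 reads from e12.5 to the adult. It had the highest mean level and was among the 5 highest sites of the e12.5 and P7 tables. The next was the let-7 site of Ahsg (fetuin-A, a plasma glycoprotein made by the liver), with 88, 407, 4041, 2102 and 3176 reads. The sites of the β-globin genes Hbb-bt and Hbb-bs for miR-674-5p had 3414, 4285, 884, 128 and 186 reads each. These genes have the same bases around the site, so their reads cannot be told apart.

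Several of these sites had a narrower range of reads as listed over the stages. The miR-101a site of Stat3, a transcription factor of cytokine and acute phase responses, had 520, 523, 307, 349 and 489 reads from e12.5 to the adult. The let-7 site of Fcho2, which shapes the membrane at clathrin pits, had 1771, 521, 949, 661 and 1120. The let-7 site of Actb (β-actin) had 415, 211, 1158, 1097 and 369, and the miR-29 site of Foxo3, a transcription factor of stress and metabolism, had 346, 560, 111, 269 and 753. For these sites the lowest and highest table lay closer together than at Ahsg, Chp1 or Fgg.

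Other sites listed throughout were high at 1 stage. The miR-27 site of Lbh had 88, 171, 359, 1802 and 262 reads, and the miR-185 site of Atp5b, the β subunit of ATP synthase, had 186, 68, 261, 1933 and 282, both with their highest reads at P7. The miR-30 site of Appl2, an adaptor of endosomes, was highest at e18.5 with 34, 137, 809, 497 and 230 reads. The miR-27 site of Pdlim1, an adaptor of the actin cytoskeleton, had 836, 119, 70, 411 and 1688, so it was lowest at e18.5 and highest in the adult.

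A further group had its highest reads early and low reads in the adult. The miR-15/16 site of Tcp1, a subunit of the chaperonin that folds actin and tubulin, had 3588, 1266, 582, 385 and 169 reads. The miR-139 site of Uqcrc2, a subunit of respiratory complex III, had 2008, 692, 554, 91 and 73, and the miR-144-3p site of Daam1, a formin that builds actin filaments, had 1691, 578, 396, 50 and 49. As listed, the reads of each were lower at every later stage. Per 1000000 cluster reads, however, Uqcrc2 had 44.8, 41.9, 42.6, 5.52 and 2.93 from e12.5 to the adult, so it was lower only after birth, and Tcp1 (80.0 and 76.6) and Daam1 (37.7 and 35.0) were close at e12.5 and e15.5. The miR-27 site of Hnrnpa2b1 (an RNA-binding protein of splicing) had 1309, 848, 194, 460 and 56, the miR-101b site of Pdzd8 had 1087, 707, 183, 103 and 81, and the miR-455-3p site of Tm9sf2 had 1040, 1200, 345, 39 and 20.

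The highest sites of single tables are given next for the most numerous miRNAs, taken as those among the first 100 in any table and not always in the table described. At e12.5 and e15.5 the miR-142a-3p site of Rpl26, a protein of the large ribosomal subunit, was first with 14797 and 5780 reads. It had 1147 at e18.5 and 154 at P7 and was not listed in the adult. A site of miR-192-3p lies in the same cluster and had nearly the same reads (14766, 5780 and 1147), so the match alone does not tell which miRNA was bound. At Rps19, of the small subunit, the miR-101b site had 4989, 1295, 198 and 338 reads and was not listed in the adult. The miR-125 site of Car2 (carbonic anhydrase, abundant in red cells) had 4892, 3930, 599 and 166 reads, likewise without an adult entry.

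At e18.5 the Ahsg site led, followed by the miR-376b-3p site of Fgg (fibrinogen γ chain), which had 414, 888, 2252, 41 and 181 reads. At P7 the highest was the miR-665-3p site of Cpt1a, which carries fatty acids into mitochondria for oxidation, with 12, 985 and 12135 reads from e15.5 to P7. The miR-665-3p site of Actn4, an actin crosslinker, had 427, 259, 1789 and 5222 reads from e12.5 to P7. Neither was listed in the adult, where miR-665-3p has no entries at all. The miR-223-3p site of Afp, the fetal counterpart of albumin, had 1424, 571, 462 and 3258 reads and no adult entry.

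In the adult table the first was the miR-194 site of Chp1, a calcium-binding partner of sodium-proton exchangers, with 145, 52, 422, 1199 and 5410 reads. It was followed by the miR-27 site of Fgg with 67, 242, 640, 172 and 5068 reads, by a miR-370-3p site of Pgrmc1 with 3347 reads that was in no other table, by Ahsg, and by the miR-673-5p site of Cps1. In the adult table miR-370-3p and miR-673-5p themselves were 5.24e-05% and 0.00031% of all miRNAs, against 0.0695% and 0.379% at e12.5. The Cps1 site had no entry at e12.5 and 8, 398, 592 and 2851 reads at the later stages. Except at Pgrmc1 and Cps1, which had no entry at e12.5, these adult sites had lower reads at e12.5 than in any table after birth.

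**Figure D3:**
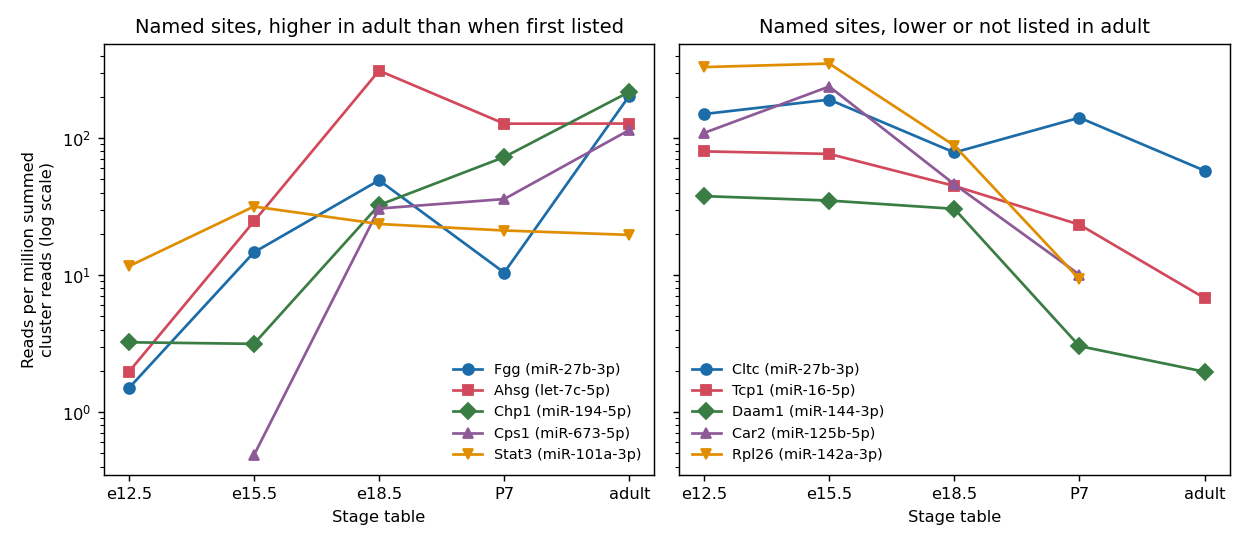
Reads at 10 named sites in reads per 1000000 summed cluster reads of a table (y axis, log scale) over the 5 stage tables (x axis), with 1 line for each gene and its miRNA family; a stage without a point had no entry. On the left, Fgg, Ahsg, Chp1 and Cps1 are higher in the adult than at the first stage listed and Stat3 lies between 11.6 and 31.7, and on the right, Tcp1 and Daam1 are lowest in the adult and Car2 and Rpl26 have no adult point.

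To compare reads between the ends of the series, the reads of each site were divided by the sum of cluster reads of the table, and the log2 ratio of the adult over the e12.5 value was taken for sites in both tables. The e12.5 sum covered both lists, whereas a site kept the higher reads of the 2, which lowers its scaled e12.5 value and raises the ratio. There is 1 table a stage, so no test was made. Over the 1359 conserved coding 8mers in both, 503 (37.0%) were more than 2-fold higher in the adult, where the share among all 28546 coding sites was 42.2%. Another 341 (25.1%) were more than 2-fold lower, where it was 21.4% among all coding sites. The median log2 ratio was 0.37 for the conserved 8mers and 0.61 for all coding sites. The difference was -0.24, which scaling cannot move because it shifts both medians alike, and it was -0.08 with the first list of e12.5 and -0.23 with the second. The medians themselves were -0.48 and -0.24 on unscaled reads, where 322 conserved 8mers were over 2-fold higher and 534 lower. About the median of all coding sites, 359 conserved 8mers were over 2-fold higher and 480 over 2-fold lower, where 31.2% of all coding sites were higher and 31.2% lower. With the first list of e12.5 alone the medians were -0.68 (414 sites) and -0.60, and with the second 0.66 (1283 sites) and 0.89. The reads of a single list were still divided by the sum over both lists. The sign of these medians thus depends on the scaling as well as on the list, and changes below are given relative to the median of all coding sites. Coding 8mers with scores under 0.1 had a median of 1.20 (128 sites), and conserved 3′UTR 8mers one of -0.11 (463 sites).

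**Figure D4:**
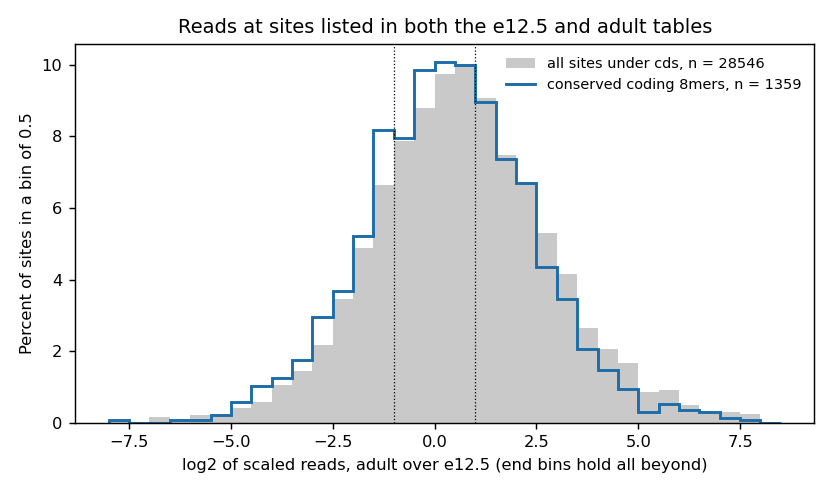
Percent of sites in bins of 0.5 (y axis) by the log2 ratio of scaled reads, adult over e12.5 (x axis), for 1359 conserved coding 8mers (line) and all 28546 coding sites in both tables (grey); dotted lines mark 2-fold. The line lies slightly to the left of the grey bars, and the medians are 0.37 and 0.61.

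The 10 sites with the highest ratio of adult over e12.5 reads, among the most numerous miRNAs, included genes of plasma proteins (Fgg, Ahsg, F2) and of lipid handling (Gpam, Mttp). The Fgg site of miR-27 stood 6.48 above the median of all coding sites on the log2 scale, the Chp1 site 5.46 and the Ahsg site 5.41. The miR-27 site of Flt4, a VEGF receptor of lymphatic and sinusoidal endothelium, had 8, 48, 175, 330 and 452 reads (6.06 above). The let-7 site of Gphn, which makes the molybdenum cofactor and anchors synaptic receptors, had 9 reads at e12.5, 23 at P7 and 326 in the adult (5.42), and the miR-29 site of F2 (prothrombin) had 9, 26 and 258 in the same tables (5.08). Gpam, the first enzyme of triglyceride synthesis, had 6, 169, 33, 19 and 160 reads at a miR-30f site (4.98). Mttp, which loads lipid onto apolipoprotein B, had 14, 39, 6, 88 and 298 at a miR-191 site (4.65). The remaining 2 were miR-673-5p sites of the class I histocompatibility genes H2-K1 (5.50) and H2-Q4 (4.48), which share the bases around the site. Many of these values start from reads near the lowest listed, so the ratios rest on few reads at e12.5.

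The 10 with the lowest ratio were in genes of several functions. The miR-370-3p site of Rps19 had 4989 reads at e12.5, 66 at e18.5 and 6 in the adult, at a log2 difference of -9.46 from the median of all coding sites. Ckap5, which lengthens spindle microtubules, had 296, 564, 203, 48 and 6 reads at a miR-673-5p site (-5.39). Xpo1, the main nuclear export receptor, had 407, 187, 184, 42 and 11 at a miR-125 site (-4.97). The values were -5.46 for Tm9sf2 and -4.87 for Daam1. Gnl3 (nucleostemin, of the nucleolus of dividing cells) had 533, 82, 6 and 17 reads at e12.5, e18.5, P7 and in the adult for miR-15/16 (-4.73), and the miR-27 site of Car2 had 1296, 548, 88, 91 and 42 (-4.71). Vcl (vinculin, of cell adhesions) at a miR-139 site and Lbr (lamin B receptor) at a miR-145 site followed with -4.69 and -4.54. Several of these ratios rest on few adult reads, such as 6 at Rps19 and Ckap5, near the lowest listed value of 5. With either list of e12.5 alone, none of these changes that could be measured (10 with the first list and 19 with the second) turned its sign. With the first list, however, Fgg went from a log2 ratio of 7.09 to 10.84 and Lbr from -3.93 to -1.38, both by more than the SD of 1.73 between the lists. These 4 ratios are not relative to the median of all coding sites, which was 0.61 with both lists and -0.60 with the first. About that median, Lbr was within 2-fold with the first list. A site whose higher reads were in that list has the same value by construction.

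Groups of genes were then described from lists chosen for liver and blood, with 2-fold differences counted about the median of all coding sites, where 31.2% of all coding sites were counted each way. The median coding length of the genes of a list ran from 1362 nt (amino acid, urea and glucose metabolism) to 6541.5 nt (chromatin regulators). Among all 13242 genes with any coding site, whose median coding length was 1506 nt, 58.6% had a conserved coding 8mer and 11.4% had one in at least 3 tables. Of 29 genes for plasma proteins, coagulation and complement with a coding site, 26 had a conserved 8mer, and 22 had one in at least 3 tables. They held 232 sites, with 70, 41, 59, 144 and 133 from e12.5 to the adult. Of the 36 sites in both the e12.5 and adult tables, 28 were over 2-fold higher in the adult and 1 over 2-fold lower, and their median was 2.60 above that of all coding sites (2.78 with the first list of e12.5 and 2.38 with the second).

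Albumin, the main plasma protein, had a miR-150-5p site with 532, 1093, 710, 2525 and 4782 reads and a miR-5114 site with 735, 1933, 2464 and 50078 reads in all tables but P7. Fgb, the fibrinogen β chain, had a miR-206 site with 154, 18, 2055, 675 and 8173 reads. Apob had a miR-491-5p site with 17, 19, 429, 7259 and 790 reads, highest at P7. Plg (plasminogen) had a miR-29 site that was not listed at e12.5 and had 32, 162, 160 and 160 reads after it. Beside these, the 8 hepatocyte markers, of which some are themselves on the list, were listed in all tables with summed highest reads of 100, 355, 1729, 3041 and 3298 per 1000000 cluster reads from e12.5 to the adult. The part of hepatocyte number in the plasma protein sites was not tested, and in whole liver more cells of a type and more RNA per cell cannot be told apart.

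Sites in lipid and cholesterol genes were mostly higher in the adult table as well. Of 26 genes, 23 had a conserved 8mer, with 178 sites, and 11 of the 16 sites in both tables were over 2-fold higher in the adult and 3 over 2-fold lower. Their median was 1.58 above that of all coding sites, and 0.38 with the first list of e12.5, where only 2 sites could be measured. Hmgcs1, of cholesterol synthesis, had 27, 301, 71 and 390 reads at a let-7 site at e12.5, e18.5, P7 and in the adult, and Fasn, the fatty acid synthase, had 73, 19, 18, 35 and 203 at a miR-103/107 site. The genes of amino acid, urea and glucose metabolism had 163 sites in 22 of 26 genes, with 19, 10, 38, 106 and 85 over the stages. Since few were listed at e12.5, only 8 sites were in both tables, of which 3 were over 2-fold higher and 1 lower, with a median 0.36 above that of all coding sites (1.65 with the first list, over 2 sites, and 0.35 with the second). Pcx (pyruvate carboxylase) had a miR-193b-3p site with 10, 837, 454 and 280 reads from e15.5 onwards.

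Genes of red and other blood cells had 115 sites in 17 of 20 genes, with 87 at e12.5 and 46, 28 and 28 in the tables after it, and 5 in the adult. The 4 sites in both tables were all in globin genes and all over 2-fold lower in the adult, with a median at a log2 difference of -4.13 from that of all coding sites (-2.74 with the first list of e12.5, over 3 sites, and -4.18 with the second). The highest reads of any conserved coding 8mer were at a miR-1843b-5p site of the α-globin gene Hba-a1, with 966981, 127441, 467864, 259108 and 17690 reads, and its bases recur at another site. Alas2, the first enzyme of heme synthesis in red cells, had 529, 259, 533 and 114 reads at a miR-455-3p site and no adult entry. The miR-15/16 site of Ank1, the ankyrin of the red cell membrane, had 24, 49, 91 and 8 and also none in the adult. Of the 8 erythroid markers, 7 were listed in each table before the adult and 6 in the adult, with summed highest reads of 23364, 31876, 38688, 16605 and 792 per 1000000 cluster reads, and Epb42 was listed in none. Their part in the blood cell sites was not tested. Macrophage, endothelial, stellate and cholangiocyte markers were listed with between 0 and 57.5 summed reads per 1000000 cluster reads, and Adgre1 was in no table.

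The genes of the miRNA machinery themselves carried sites. Of 15, 11 had a conserved 8mer, with 151 sites in all, of which 101 were in the e12.5 table and 22 in the adult. Of 7 in both, 2 were over 2-fold higher and 2 lower, with a median 0.92 above that of all coding sites. Ago2, the protein that was precipitated, had 139, 130, 132, 36 and 25 reads at a miR-30 site, the lowest ratio of the 7. Tnrc6a, a partner of Ago in repression, had 102, 20, 112 and 164 reads in all tables but e18.5 at a miR-540-5p site (0.92 above), and Dicer1, which cuts miRNA precursors, had 553, 230, 149 and 95 from e15.5 onwards at a miR-101b site. Of chromatin regulators, all 30 had a site, with 323 in all, in coding sequences of 6541.5 nt at the median. Of 14 in both tables, 5 were over 2-fold higher and 3 lower, with a median 0.45 above that of all coding sites (0.90 with the first list of e12.5, over 5 sites, and 0.55 with the second). Arid1a, a subunit of SWI/SNF remodellers, had 84, 465 and 1109 reads at e12.5, P7 and in the adult at a miR-206 site (3.96 above). Chd4, a nucleosome remodeller, had 798, 220, 34, 542 and 34 reads at a miR-15/16 site, the lowest ratio of the 14. Kmt2c, a histone methyltransferase, had 375, 175, 176, 627 and 91 at another. Ezh2, the methyltransferase of Polycomb repression, had 259, 278, 144 and 24 at a miR-143-3p site and no adult entry.

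RNA-binding and splicing genes had 285 sites in all 24 genes, 170 of them at e12.5 and 55 in the adult, and of the 24 sites in both, 6 were over 2-fold higher and 8 lower, with a median at a log2 difference of -0.52 from that of all coding sites. Snrnp200, a helicase of the spliceosome, had 164, 28, 171, 65 and 134 reads at a let-7 site. Cytoskeleton and motor genes had 421 sites in all 18 genes, and of their 40 sites that were in both, 7 were over 2-fold higher and 17 over 2-fold lower, with a median at -0.39 from that of all coding sites. Sptbn1 had 184, 178, 199, 389 and 583 reads at a miR-194 site. Macf1 had overlapping courses at neighbouring sites of miR-223-3p (156, 127, 207, 432 and 183) and miR-27 (156, 127, 207, 420 and 108), which had the same reads in the embryonic tables. Translation genes had 124 sites in all 17 genes and signalling genes 117 in 23 of 26, with 8 and 4 sites in both tables.

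The place of the sites within the coding sequence could be read for 25696 sites (97.9%) from the GENCODE annotation. Within 300 nt of the end of the coding sequence lay 21.2% (95% interval 20.7 to 21.7) of the conserved 8mers and 18.9% (17.6 to 20.3) of the coding 8mers with scores under 0.1. The share was 24.4% for conserved sites in at least 3 tables and 31.4% (26.3 to 36.9) for the 290 placed sites in all 5. Median coding lengths differed as well, at 2055 nt for all conserved sites, 1851 nt for those in at least 3 tables and 1714.5 nt for those in 5. A fixed distance covers more of a shorter sequence, and the part of length in the difference was not tested.

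The first base of the 8mer was the first base of a codon at 42.5% (41.9 to 43.1) of the conserved sites, the second at 24.4% and the third at 33.1%. Coding 8mers with scores under 0.1 had 38.7% (37.1 to 40.3), 27.9% and 33.4%. In 220 of the 828 families the 8mer would hold a stop codon in 1 or more reading frames, and 2 of the 25696 sites lay in such a frame. In families whose 8mer has no stop codon in any frame, the shares were 40.8%, 26.5% and 32.7% of 18948 sites. Each family had its own frames. The miR-27 site ACTGTGAA began at codon position 1 in 44.5%, at 2 in 55.5% and never at 3, where it would read the stop codon TGA. The same frame was empty for miR-673-5p (GCTGTGAA), miR-23 (AATGTGAA) and miR-26 (TACTTGAA). let-7 sites (CTACCTCA) began at position 3 in 62.3% and miR-15/16 sites (TGCTGCTA) at position 1 in 9.74%, whereas miR-103/107 sites (ATGCTGCA) began at position 1 in 67.8% and at 3 in 3.36%.

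**Figure D5:**
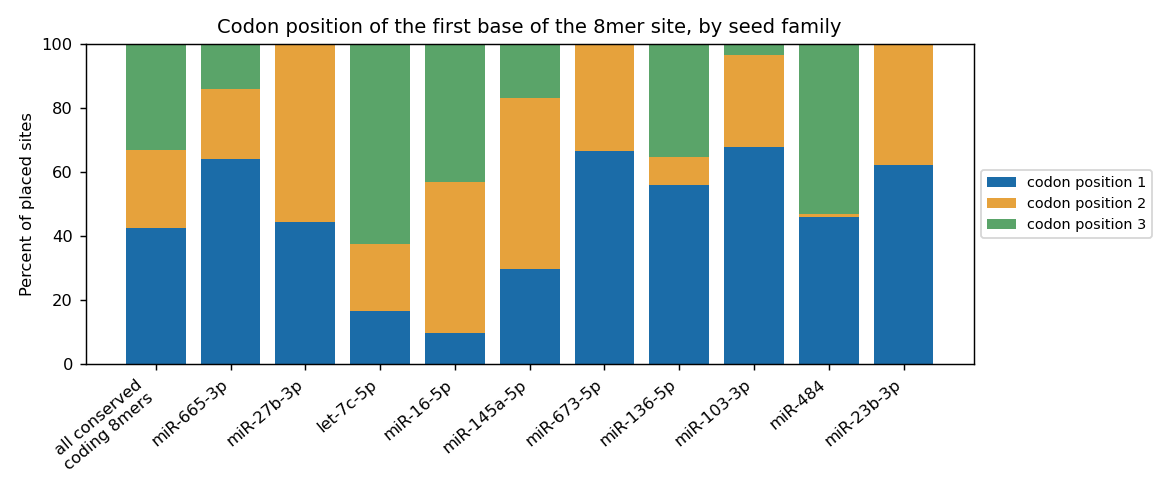
Percent of placed sites (y axis) whose 8mer began at codon position 1 (blue), 2 (orange) or 3 (green), for all conserved coding 8mers and for the 10 families with the most sites among the most numerous miRNAs (x axis). Over all sites the shares are 42.5%, 24.4% and 33.1%, while miR-27, miR-673-5p and miR-23 have no site at position 3 and let-7 has most of its sites there.

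The deposited free energy of the duplex of miRNA and site, for which a more negative score means firmer pairing, had a median of -12.5 for conserved coding 8mers, -13.2 for coding 8mers with scores under 0.1 and -11.1 for conserved 8mers of 3′UTRs. From the 25th to the 75th percentile, conserved coding sites lay between -15.6 and -9.7, so the sets overlapped over most of their range. In 4.09% of the entries of conserved coding 8mers no other seed was matched in the cluster, and the middle of the distribution lay between 3 and 7 further seeds.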

How the data were processed

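The authors trimmed the reads with the FASTX-Toolkit, aligned them to mm10 and miRBase v19 precursors (Bowtie), grouped overlapping reads into clusters, annotated these with refGene and Ensembl, and searched them for seed matches. Tool versions are not given in the sources used here, the submitters' processing notes name both mm9 and mm10, and whether libraries were pooled is not stated. All 26252 sites matched the mm10 sequence. The deposited read column is a signal of whole numbers not scaled to library size. The deposited conservation value and duplex free energy are scores, and the method behind the former is not named. The number in each interaction name is not explained by the tables and was taken as reads of the miRNA.

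Sites were joined over the 5 tables by position, strand and seed. Where an embryonic table listed a site in both lists, the higher reads were used, while cluster reads were summed over both lists. Coordinates are 1-based and span the 8 bases. Two-sided Fisher's exact tests with Benjamini-Hochberg adjustment (threshold 0.05) and Wilson 95% intervals were computed with scipy 1.17.1, pandas 2.3.3, numpy 2.4.6, pysam 0.24.0, bedtools 2.31.1 and Python 3.11.15, and plots with matplotlib 3.10.9. The family test was tested on simulated data. RefSeq held a mature sequence for 48 of 52 families looked up. No column of per-sample values was left unmapped.

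Sites named were the 20 highest in all 5 tables, the 5 highest of each table and the 10 highest and 10 lowest ratios of adult over e12.5 reads, all of the 100 most numerous miRNAs, and sites in 3 or more tables of genes on the lists (plasma proteins, lipid, amino acid, urea and glucose metabolism, blood cells, miRNA machinery, chromatin, RNA binding, translation, cytoskeleton, signalling, and markers of liver cell types). A few sites and genes that the rule names are not reported here. Families named were those with the most sites or past the test. The members and lists were chosen with earlier results of these data known. Library totals for 1 alternative came from the study's supplement. Alternatives covered the score, reads, region, lists, miRNAs, scaling and unit of counting. Sites on chromosome 18 are counted and their sequences are not printed.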

Additional observations from a re-analysis of the deposited data

How the results depend on the processing

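The number of sites was 16773 where cds had to be the only region listed, 16411 with the first list of the embryonic tables alone and 4510 with the 100 most numerous miRNAs of each table. The share in all 5 tables, 1.14%, was 0.292% with the first list, 0.987% with the second, 2.82% for the most numerous miRNAs, 1.43% for merged clusters, 3.65% for sites with at least 50 reads and 2.18% for seeds listed in all 5 tables, a setting chosen after seeing the data. The 206 families that passed became 119 with cds only, 66 with the first list, 49 for the most numerous miRNAs, 26 for seeds in both tables, 122 with at least 20 sites, and 29 with both of the last restrictions, a setting also chosen after seeing the data. The median log2 change of 0.37 was -0.68 with the first list, whose reads were still divided by the sum over both lists, and -0.48 on unscaled reads. It was 0.67 on reads scaled to library totals, a setting added after seeing the data. The recurrence of conserved over non-conserved coding sites was 0.27 (exact test, adjusted p = 0.111) for scores under 0.9 and 0.60 (adjusted p = 0.0532) for seeds in all 5 tables. With the first list alone, the log2 odds ratio of miR-3966 turned to -0.63, and that of miR-692, with no site in that list at e12.5, was 4.87. The cause of these differences was not tested. Of the other values of these main results, 34 kept their direction and side of the threshold or moved by less than their spread, which for the median log2 change was the SD of 0.951 between the medians of the lists. Of those for single families and sites, 412 did so, 20 no longer passed, 4 newly passed and 2 moved. Under the first list miR-26 and miR-29 were among those that no longer passed (both adjusted p = 0.0851 by the exact test). No paired analysis was possible because each stage has 1 table.

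The lowest listed value of 5 reads and seeds absent from whole tables limit what the recurrence of a site shows. No stage has a labelled replicate table here, so the spread between animals was not measured.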

Other observations

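Genes of translation and of signalling also carried sites, with 9 translation genes and 6 signalling genes having one in at least 3 tables. Of 17 translation and ribosome genes, all had a conserved coding 8mer, with 124 sites, 77 of them at e12.5 and 20 in the adult. Eef1a1, the elongation factor that brings tRNA to the ribosome, had 601, 184, 260, 61 and 44 reads at a miR-223-3p site, and Rplp0, of the ribosomal stalk, had 147, 262, 13 and 28 at a miR-30a-3p site and no adult entry. Of 26 signalling and growth genes, 23 had a site, with 117 in all, and no gene of the list had a site in all 5 tables. The miR-103/107 site of Notch1 had 45, 6, 58 and 42 reads at e12.5, e18.5, P7 and in the adult. Of sites for miR-122-5p, the leading hepatocyte miRNA, 88 would have met the rule for score, seed type and region.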
